A study of Mus musculus with 4 samples.

Results

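Cytosolic ribosomal protein genes were examined in the RNA-seq data of mouse myeloid-derived suppressor cells (MDSCs). Members were chosen by symbol and by FPKM: they were the genes of the Rps, Rpl, Rpsa and Rplp series, paralogs with an l in their symbol included, that reached 1 FPKM (fragments scaled to transcript length and to the mapped reads of the library) in each of the 4 libraries. Of 24346 genes in the files, 84 symbols matched, and 81 of them reached this level. The rule therefore used the FPKM level and not the difference between the groups, but the family was picked with earlier results of these data known, so its members are described by counts and medians and the family itself is not tested.

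MDSCs are immature myeloid cells that restrain T cells. They were grown here from bone marrow of female C57BL/6J mice, 6 to 8 weeks old, in medium with 40 ng/ml GM-CSF for 4 days. The Control group (n = 2) received GM-CSF alone, and the G-CSF group (n = 2) received GM-CSF with 5 ng/ml G-CSF, the growth factor that drives neutrophil production. The study calls the libraries of a group biological replicates, but whether each came from its own mouse was not given in the sources used here. With 2 libraries a group the p-values measure only the spread between these libraries.

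The ribosome is made of ribosomal RNA and of proteins that belong to a small (40S) or a large (60S) subunit. The subunits are built in the nucleolus and meet on an mRNA, which the small subunit decodes while the large subunit joins the amino acids. Ribosomal protein mRNAs are among the most abundant in growing cells, and most begin with a 5′ terminal oligopyrimidine (TOP) stretch through which the kinase complex mTORC1 controls how much of them is translated.

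Summed over the 81 genes, ribosomal protein mRNA was 85072 FPKM in Control 1, 81935 in Control 2, 96469 in G-CSF 1 and 95074 in G-CSF 2. Both G-CSF libraries were above both Control libraries, with a ratio of the group means of 1.15. As a share of all FPKM the family was 12.7% ± 0.0563 (SD, n = 2) in Control and 14.9% ± 0.195 (SD, n = 2) with G-CSF. The antimicrobial protein genes S100a8 and S100a9 took 10.1% and 9.03% of all FPKM in the Control libraries and 7.21% and 7.15% in the G-CSF libraries. With those genes left out of the total, the share of the ribosomal proteins was 14.1% ± 0.0532 in Control and 16.0% ± 0.218 with G-CSF (SD, n = 2). An exact two-sided permutation test of 2 libraries against 2 cannot go below p = 0.333, so no test is given for these sums.

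The difference was small and had 1 direction in nearly all members. On the log2(FPKM + 0.1) scale, 78 of the 81 members had a positive fold change, where 51.2% of the 11018 genes tested had one. The median over members was 0.21, with the middle of the distribution between 0.17 and 0.24, and 73 of the 81 lay between 0.1 and 0.31. The median over all genes tested was 0.01. In 76 members (93.8%) both G-CSF values exceeded both Control values, as they did in 35.1% of all genes tested. The exceptions were Rpl3l, in which both G-CSF values were lower (32.5% of all genes), and Rps27, Rpl30, Rpl34 and Rps4l, in which the groups overlapped.

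With limma and Benjamini-Hochberg adjustment over all genes tested, 51 of the 81 members (63%) rose at an adjusted p under 0.05 and none fell, where 12.4% of all genes rose and 10.6% fell. Calls were more frequent among abundant genes. Of 847 other genes with a mean of at least 100 FPKM, 218 (25.7%) rose and 184 fell. The log2 fold changes of the 51 members ran from 0.18 to 0.31 and the lowest adjusted p was 0.0154. No member passed the 2-fold limit that the study set. Of all genes, 0.445% passed both this limit and an adjusted p under 0.05 upwards, and 0.771% did so downwards. Of the 30 members without an adjusted p under 0.05, 25 still had both G-CSF values above both Control values, and 21 had an unadjusted p under 0.05. The count of calls rests on the variance model. Without a mean-variance trend 0 members passed (lowest adjusted p 0.0506, with 60 at an unadjusted p under 0.05), without the filter on low values 14 passed, and with 1 library left out the count was 7 without Control 1, 0 without Control 2, 0 without G-CSF 1 and 4 without G-CSF 2. With the library left out, 70, 53, 43 and 56 members, in the same order, had an unadjusted p under 0.05.

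**Figure D1:**
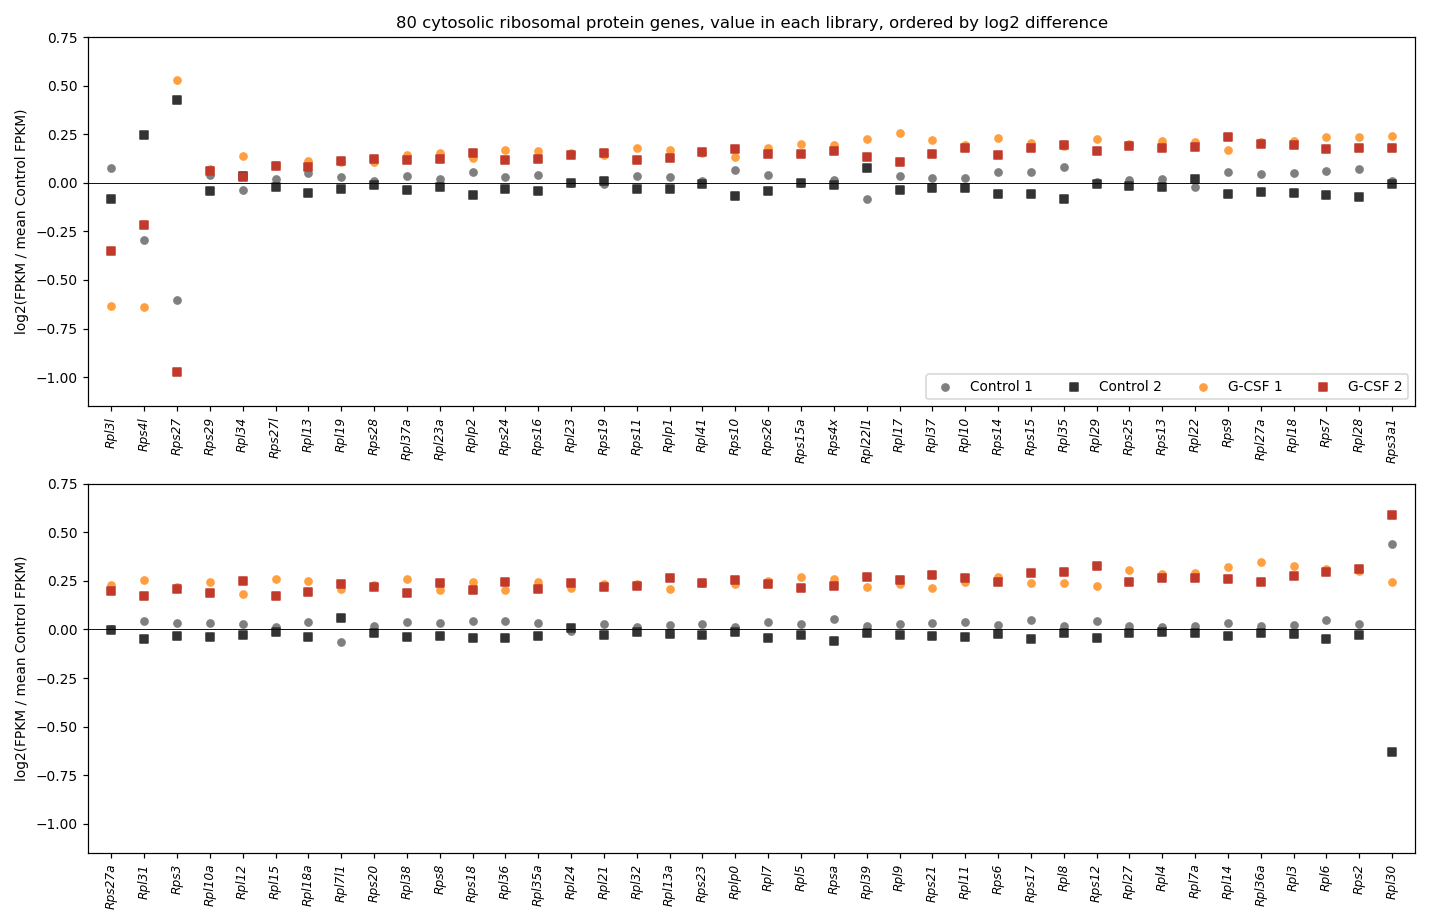
FPKM of 80 of the 81 members in each library, as log2 of its ratio to the mean of the Control libraries (vertical axis), with genes along the horizontal axis in order of their log2 fold change. Grey and black points are the Control libraries and orange and red points the G-CSF libraries. Both G-CSF points lie above both Control points in 75 of these genes, and Rps27, Rpl30 and the weakly expressed Rpl3l and Rps4l depart from the rest.

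The difference between the groups was larger than the difference between replicates for most members. The median absolute log2 difference between the Control libraries was 0.0637 and that between the G-CSF libraries 0.0373. The replicates differed mostly in 1 direction. Control 1 was above Control 2 in 72 of the 81 members, by a median of 0.06, while the median over all genes tested was 0.00. G-CSF 1 was above G-CSF 2 in 55 members, by a median of 0.02. The family thus moved together between libraries of 1 group also, by less than it moved between the groups.

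Marker RNAs of other cell types and states moved with the groups. Markers of neutrophil precursors (the primary granule genes Mpo, Elane, Prtn3, Ctsg and Ms4a3) summed to 838 to 965 FPKM in Control and 2111 to 2246 with G-CSF, and all 5 rose. The 6 markers of proliferating cells summed to 614 to 623 FPKM in Control and 743 to 765 with G-CSF, and all 6 rose. The 7 dendritic cell markers summed to 2756 to 3218 FPKM in Control and 1448 to 1799 with G-CSF, and 4 of the 6 tested fell. Cd74 alone held 1740 to 2016 FPKM of this sum in Control and 940 to 1153 with G-CSF. Mature neutrophil markers summed to 1280 to 1347 FPKM in Control and 883 to 1080 with G-CSF, and 3 of 6 fell. Mmp8 held 728 to 811 FPKM of this sum in Control and 659 to 781 with G-CSF, and its groups overlapped. Markers of mast cells and basophils summed to 135 to 138 FPKM in Control and 84.7 to 94.5 with G-CSF, with 5 of 6 that fell, and those of macrophages to 172 to 194 and 124 to 142 FPKM, with 2 of 6 that fell. The 9 myeloid identity genes tested summed to 69506 to 78540 FPKM in Control and 54749 to 55240 with G-CSF, and 4 fell. Most of this sum was S100a8, at 30633 to 35613 FPKM in Control, and S100a9, at 27310 to 31959. Cebpe and Ly6c1 had overlapping groups. Of the 5 progenitor markers tested, 1 rose and 1 fell. By flow cytometry of such cultures, the study found the percentages of MDSCs, dendritic cells and macrophages unaffected by G-CSF. Within the MDSCs it reported a larger monocytic share and a smaller polymorphonuclear share. Those cell counts were not compared with the RNA values here. The part of these shifts in the ribosomal protein values was not tested, and in bulk RNA fewer cells of a type and less RNA per cell cannot be told apart. The 8 liver genes, checked because the labels name liver tissue for the extraction, summed to at most 2.30 FPKM with Alb at 0 in every library.

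Levels differed far more between members than between the groups. The median of the mean FPKM was 1035, with 66 members above 500, 45 above 1000 and 6 below 100. Rpl41, a very short basic protein of the 60S subunit, had the highest values, 3610 and 3569 FPKM in Control against 3987 and 4013 with G-CSF. The groups did not overlap, but the change of 0.16 had an adjusted p of 0.0768. Rplp1 followed with 3573 and 3424 FPKM in Control against 3937 and 3825 with G-CSF (log2 fold change 0.15, adjusted p = 0.102). Rps29 came next, with 2444 and 2308 FPKM in Control against 2495 and 2482 with G-CSF. Its log2 fold change of 0.07 (SE 0.0527, adjusted p = 0.388) was among the smallest of the family.

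Of the 31 proteins of the 40S subunit, 18 rose and none fell, with a median log2 fold change of 0.20. Rps2, a protein of the mRNA entry site, had 1782 and 1716 FPKM in Control against 2156 and 2172 with G-CSF. This was a rise from 1749 ± 46.4 to 2164 ± 11.4 FPKM (SD, n = 2), the largest gain of the family in FPKM, with a log2 fold change of 0.31 (SE 0.0478, adjusted p = 0.0160). Rps6, the substrate of the S6 kinases that act downstream of mTORC1, had 747 and 722 FPKM in Control against 886 and 870 with G-CSF. The groups were apart, and the log2 fold change was 0.26 (SE 0.0438, adjusted p = 0.0193). Rps23, a protein of the decoding centre, rose from 967 and 931 FPKM to 1121 and 1120 FPKM (log2 fold change 0.24, adjusted p = 0.0225). Rps15a had the lowest level among the 40S proteins, 51.9 and 51.8 FPKM in Control against 59.6 and 57.5 with G-CSF, and rose by a log2 of 0.18 (adjusted p = 0.0450). It shared 37.3% of its windows of read length with other annotated genes. Of its copies, Rps15a-ps4 and Rps15a-ps6 summed to 2.34 to 4.40 FPKM, and whether reads were lost to further copies was not tested.

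Of the 45 proteins of the 60S subunit that were tested, 32 rose and none fell, with a median log2 fold change of 0.22. Rpl3, which lies next to the peptidyl transferase centre, had 783 and 759 FPKM in Control against 968 and 933 with G-CSF. The G-CSF values were both higher, 950 ± 24.8 against 771 ± 17.2 FPKM (SD, n = 2), and this was the member with the lowest p (log2 fold change 0.30, SE 0.0459, adjusted p = 0.0154). Rpl4, which reaches into the exit tunnel, had 1006 and 988 FPKM in Control against 1214 and 1199 with G-CSF (log2 fold change 0.28, adjusted p = 0.0160). Rpl7a was at 1239 and 1208 FPKM in Control and at 1495 and 1468 with G-CSF (log2 fold change 0.28, adjusted p = 0.0174). In each of these genes the gap between the groups was several times that between replicates. Rpl6, Rpl14, Rpl27, Rpl8 and Rpl36a also rose, with log2 fold changes of 0.31, 0.29, 0.28, 0.27 and 0.30. Rpl24, Rpl9, Rpl21, Rpl39, Rpl13a and Rpl32 completed the members with the 20 lowest p-values, together with those described elsewhere in the text, at log2 fold changes from 0.23 to 0.25.

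**Figure D2:**
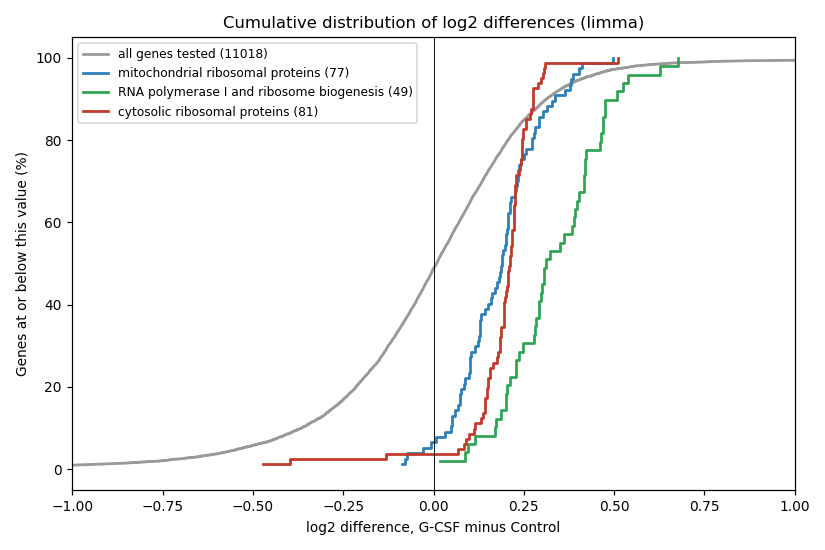
Cumulative share of genes (vertical axis, percent) at or below each log2 fold change of G-CSF over Control (horizontal axis), for the 11018 genes tested, 77 mitochondrial ribosomal proteins, 49 genes of ribosome biogenesis and the 81 cytosolic ribosomal proteins. The cytosolic ribosomal protein curve is steep and centred on 0.21, the biogenesis curve lies further right at a median of 0.31, and all genes are centred on 0.01.

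Functional sites of the ribosome were described by lists within the family. Both proteins of the 5S particle, which brings the 5S RNA into the large subunit and also binds the p53 regulator Mdm2, rose. Rpl5 went from 456 and 437 FPKM to 539 and 519 FPKM (log2 fold change 0.24, adjusted p = 0.0232), and Rpl11 from 1280 and 1211 FPKM to 1474 and 1498 FPKM (log2 fold change 0.26, adjusted p = 0.0249). In the P stalk, where elongation factors bind, 2 of 4 members rose. Rplp0, its base, had 1274 and 1252 FPKM in Control against 1483 and 1505 with G-CSF (log2 fold change 0.24, adjusted p = 0.0216), while Rplp1 and Rplp2 had adjusted p-values of 0.102 and 0.124. Around the exit tunnel, 3 of 7 members tested rose, and all 7 had G-CSF values above the Control values. Of 11 genes mutated in Diamond-Blackfan anaemia, an inherited failure of red cell production, 5 rose and all 11 had higher values in both G-CSF libraries. Rps19, the gene most often mutated in that disease, was at 1184 and 1195 FPKM in Control against 1312 and 1324 with G-CSF, with an adjusted p of 0.0612. Rpl5 and Rpl11 are counted in this list too. In the whole family 63% rose and 93.8% had both G-CSF values higher, against 12.4% and 35.1% of all genes tested. The shares that rose were 50% (P stalk), 42.9% (exit tunnel) and 45.5% (Diamond-Blackfan anaemia), each below that of the family.

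The paralogs differed among themselves. Of the 5 that reached 1 FPKM, 1 rose and 3 had both G-CSF values above both Control values. Rpl7l1, whose homologs act in assembly of the large subunit, went from 56.8 and 61.9 FPKM to 68.5 and 69.9 FPKM (log2 fold change 0.22, adjusted p = 0.0444). Rpl22l1 had 166 and 186 FPKM in Control against 207 and 193 with G-CSF, and Rps27l, a p53 target gene, had 365 and 355 FPKM in Control and 383 in both G-CSF libraries. Their log2 fold changes of 0.18 and 0.09 had adjusted p-values of 0.112 and 0.164. Rpl36al lies outside the symbol rule but encodes a near-identical partner of Rpl36a. It rose like the family, from 442 and 426 FPKM to 506 and 515 FPKM (log2 fold change 0.23, adjusted p = 0.0220).

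The members nearest to the level limit included paralogs. Rpl3l, which replaces Rpl3 in striated muscle, was just inside it at 3.32 and 2.97 FPKM in Control against 2.03 and 2.46 with G-CSF. It was the single member with both G-CSF values lower (log2 fold change -0.47, SE 0.152, adjusted p = 0.0780). Rps4l, a paralog by symbol, is annotated as a transcribed processed pseudogene without a coding sequence. It had 5.29 and 7.69 FPKM in Control against 4.16 and 5.59 with G-CSF, so its groups overlapped (log2 fold change -0.40, adjusted p = 0.239). Rpl30, which has a near-identical copy, was the third. Just outside the limit were Rpl39l, at 0.375 and 0.472 FPKM in Control against 0.135 and 0.214 with G-CSF, and Rpl10l and Rpl26, which were listed at 0 in every library.

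Ribosomal protein genes have many processed copies in the genome, and their reads can often be placed in several genes. Of the 81 members, 78 shared at least 1 window of 75 bases, the read length, with another annotated gene, and 69 shared over 10% of their windows. The median share was 48.1%, and the median number of genes sharing was 5. Among the 12 members with at most 10% shared windows, 10 rose and the median log2 fold change was 0.22. Among the 69 with more, 41 rose and the median was 0.21. Rps3 and Rpl3l were among those that shared no window. Rps3 had 410 and 391 FPKM in Control against 467 and 464 with G-CSF (log2 fold change 0.22, adjusted p = 0.0280).

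For 4 genes an annotated copy with the same or nearly the same coding sequence was compared. They were singled out after their values were seen, and they need not be the only ones with such a copy. Rpl10 and Rps12, for example, shared 91.9% and 89.5% of their windows with other annotated genes, against 41.4% for Rpl34 and 40.1% for Rpl30. Rps27, a zinc finger protein of the 40S subunit (chr3:90212522-90213651, minus strand, mm10), has a coding sequence of 255 bases that is the same, base for base, in the copy Rps27rt (chr9:114982366-114982739, minus strand). It is shown because no read within it can separate the genes.
Rps27 and Rps27rt: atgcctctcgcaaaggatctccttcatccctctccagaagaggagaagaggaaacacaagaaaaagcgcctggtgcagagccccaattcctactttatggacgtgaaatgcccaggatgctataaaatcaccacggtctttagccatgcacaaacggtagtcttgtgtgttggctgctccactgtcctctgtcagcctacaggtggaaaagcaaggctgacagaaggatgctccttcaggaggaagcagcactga

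Rps27 had 415 and 847 FPKM in Control against 910 and 321 FPKM with G-CSF, a spread between replicates found in no other abundant member. Rps27rt mirrored it, with 1350 and 851 FPKM in Control against 916 and 1445 FPKM with G-CSF. Where Rps27 was low its copy was high, and the sum of the pair was steady at 1764 and 1698 FPKM in Control against 1826 and 1767 FPKM with G-CSF. The log2 fold change was -0.13 (SE 0.556, adjusted p = 0.884) for Rps27 alone and 0.05 (SE 0.0488, adjusted p = 0.458) for the sum. The negative sign of Rps27 was thus lost in the sum, which did not pass the test.

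The other 3 genes differ from their copies by 1 or 2 bases of the coding sequence, and most of their FPKM stood at the copy. Each pair of windows below shows 41 bases of the coding sequence around a difference, which is in capitals, with positions counted from 1 at the A of the start codon and the base of the gene named before that of the copy.
Rpl34: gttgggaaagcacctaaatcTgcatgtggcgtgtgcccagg
Rpl34-ps1: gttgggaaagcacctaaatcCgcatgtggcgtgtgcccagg
Rpl30: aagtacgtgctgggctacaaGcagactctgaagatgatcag
Gm12191: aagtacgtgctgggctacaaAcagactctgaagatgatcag
Rpl26: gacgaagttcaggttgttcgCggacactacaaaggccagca
Gm15772: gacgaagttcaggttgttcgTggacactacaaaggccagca

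Rpl34 (chr3:130726831-130730398, minus strand) and Rpl34-ps1 (chr6:71124610-71124963, plus strand) differ by T132C and C318G. Rpl34 had 30.1 and 31.7 FPKM in Control against 34.0 and 31.5 with G-CSF, while Rpl34-ps1 had 1083 and 1023 FPKM in Control against 1215 and 1185 with G-CSF. The sum rose like the family, with a log2 fold change of 0.19 (adjusted p = 0.0485). Rpl30 (chr15:34440505-34443640, minus strand) and Gm12191 (chr11:49678710-49679057, minus strand) differ by G96A. Rpl30 had 32.7 and 15.6 FPKM in Control against 28.6 and 36.4 with G-CSF, and Gm12191 had 1015 and 986 FPKM in Control against 1148 and 1118 with G-CSF. The sum again rose, by a log2 of 0.19 (adjusted p = 0.0419), whereas Rpl30 alone had a log2 fold change of 0.51 with an SE of 0.345 and an adjusted p of 0.320. Rpl26 (chr11:68901583-68906989, plus strand) was listed at 0, and Gm15772 (chr5:3236431-3236868, plus strand), which differs from it by C177T and T288C, had 1403 and 1288 FPKM in Control against 1502 and 1508 with G-CSF. Its log2 fold change of 0.16 had an adjusted p of 0.0938. Which of the genes the RNA came from was not tested, and a level of 1 of these 4 genes alone is uncertain. Whether reads of other members with shared windows were split in the same way was not tested.

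**Figure D3:**
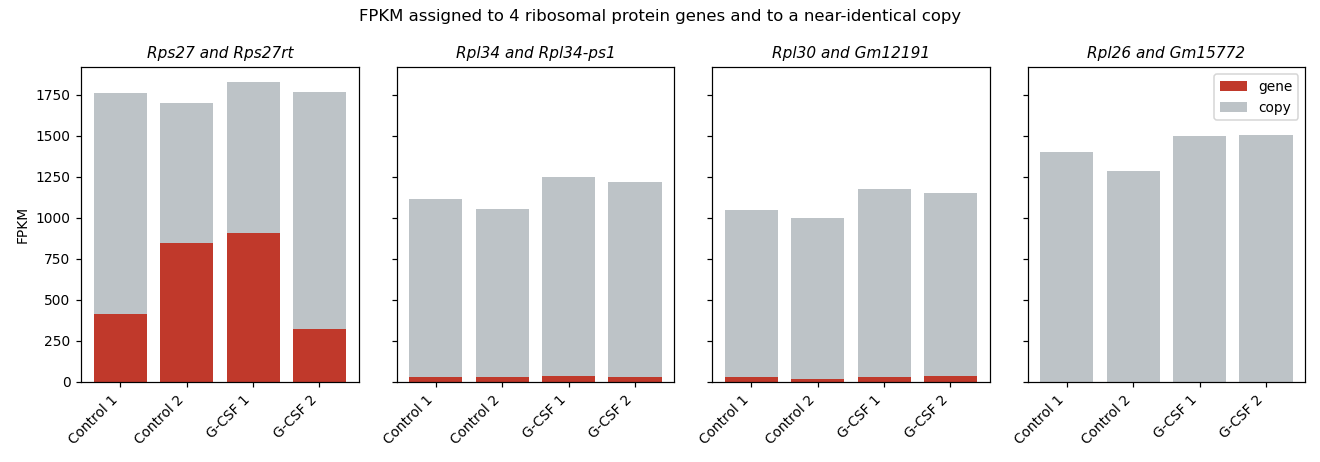
FPKM (vertical axis, from 0) assigned in each library to 4 ribosomal protein genes (red) and, stacked on it, to a near-identical annotated copy (grey). The split between Rps27 and Rps27rt shifts between libraries, with Rps27 below its copy in each, while their sum stays between 1698 and 1826 FPKM. In the other 3 pairs nearly all FPKM lies at the copy.

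Members with longer coding sequences had, on the median, larger fold changes. Over the 73 members of the 2 subunits without Rps27, Rpl30 and Rpl34, the log2 fold change and the coding length had Pearson's r = 0.469 and Spearman's rho = 0.369, a description across genes measured in the same 4 libraries, which are not independent replicates. The 24 members with the longest coding sequences, 585 to 1260 bases, centred on a log2 fold change of 0.24, and 21 of them rose. The 24 with the shortest, 78 to 408 bases, had a median of 0.20, and 15 rose. Rpl3, Rpl4, Rps2 and Rpl6 are among the long ones, and Rps28, Rps29 and Rpl41 are among the short ones. The ranges overlapped, from 0.10 to 0.31 in the longest and from 0.07 to 0.30 in the shortest. Rpl36a, with 321 bases, had 0.30, and Rpl13, with 636 bases, had 0.10. The difference between the Control libraries had r = -0.0393 with the coding length, and that between the G-CSF libraries had r = 0.0748. The length of the whole mRNA had a weaker relation to the log2 fold change than the coding length, with r = 0.23 and rho = 0.269. The percent of G and C bases had r = -0.105 with the log2 fold change, and the percent of shared windows had r = 0.115. The mean FPKM had r = -0.317 with the log2 fold change, and r = -0.236 with the difference between the G-CSF libraries. The parts of coding length, mRNA length and level were not separated.

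**Figure D4:**
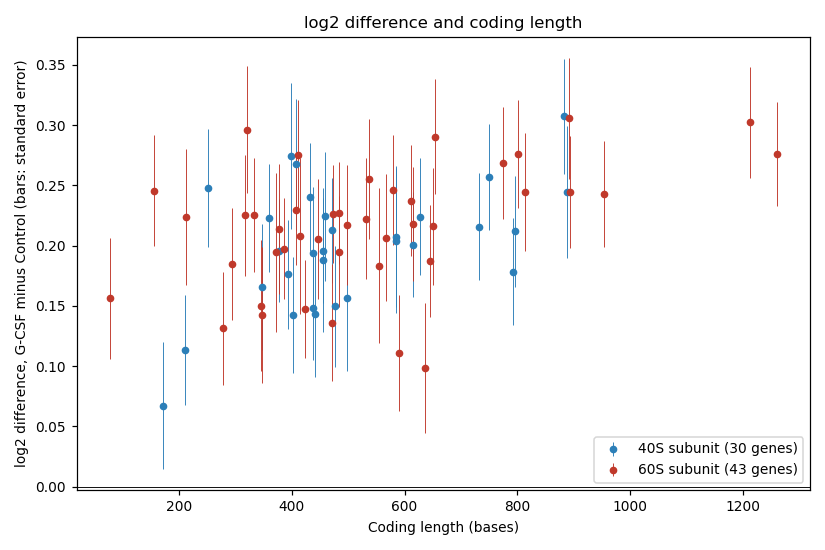
log2 fold change of G-CSF over Control (vertical axis, points with standard errors) against coding length in bases (horizontal axis) for 73 members of the 40S (blue) and 60S (red) subunits. All 73 lie above 0, and the 24 longest genes centre on 0.24, against 0.20 for the 24 shortest.

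The starts of the members were read for a TOP stretch, since the data bear on genes that share it. RefSeq promoters (GRCm38.p6) were found for 60 of the 81 members (74.1%). This is short of the minimum of 80%, so the counts describe the matched genes and are void as a check of the family. A C at the annotated start followed by at least 4 pyrimidines was present in 13 of 60 (21.7%), against 3.01% of 27025 genes and none of 69 mitochondrial ribosomal protein genes. A C followed by at least 6 pyrimidines anywhere in the 30 bases around the start was present in 31 (51.7%), against 16.4% of all genes and 15.9% of the mitochondrial ribosomal protein genes. The motif CTTTCC, which can lie within such a stretch, was in that window on the strand of the gene in 9 members (15%) and in 1.67% of all genes. Windows of 15 bases before and 15 bases from the annotated start are shown for 6 members in which the stretch, in capitals, spans the start.
Rps6 (chr4:86857353-86857382, minus strand): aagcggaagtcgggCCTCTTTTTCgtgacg
Rpl14 (chr9:120571502-120571531, plus strand): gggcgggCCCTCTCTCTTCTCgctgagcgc
Rpl15 (chr14:18270972-18271001, minus strand): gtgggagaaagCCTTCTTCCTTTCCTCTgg
Rps18 (chr17:33955651-33955680, minus strand): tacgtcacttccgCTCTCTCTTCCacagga
Rplp2 (chr7:141447636-141447665, plus strand): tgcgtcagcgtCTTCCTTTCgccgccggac
Rpl28 (chr7:4792950-4792979, plus strand): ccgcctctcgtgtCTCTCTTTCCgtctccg

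Of these, Rps6, Rpl14, Rpl15 and Rps18 rose, while Rplp2 and Rpl28 had adjusted p-values of 0.124 and 0.0731 with both G-CSF values above both Control values. The median over the 13 members with the stretch at the start was 0.22, and 8 of them rose. Of the 31 members with a C followed by at least 6 pyrimidines in the window, 17 rose, at a median of 0.21. Of the 29 members with neither stretch 21 rose, also at a median of 0.21. The annotated start may differ from the one used in these cells, so a member without the letters may still carry a TOP stretch.

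Genes that work with the ribosomal proteins were counted in the same fit. Fau makes a ribosomal protein as a fusion with a ubiquitin-like protein, and it did not pass the test. It had 1327 and 1264 FPKM in Control against 1372 and 1324 with G-CSF (log2 fold change 0.06, adjusted p = 0.431). Rps27a, a ubiquitin fusion that the rule takes in, rose by 0.21 (adjusted p = 0.0276), as did Rack1, the 40S scaffold protein listed as Gnb2l1 (0.21, adjusted p = 0.0277).

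Of the 6 elongation factor genes, 4 rose, with a median log2 fold change of 0.26. Eef1d, which reloads eEF1A with GTP, rose from 78.4 and 82.0 FPKM to 103 and 111 FPKM (log2 fold change 0.41, adjusted p = 0.0131). Of 35 initiation factor genes, 23 rose with a median of 0.21, and Eif2s2, a subunit of the factor that brings the initiator tRNA, went furthest among its 3 genes of lowest p at 0.44 (adjusted p = 0.00954). Of 17 genes outside the family known to carry a TOP stretch, 11 rose with a median of 0.21. Of these 17, 12 also stand in other lists, 10 of them among the elongation and initiation factors, and of the 5 that do not, 4 rose with a median of 0.22. Tpt1, a TOP gene named after its values were seen, was among those that did not rise, with 2144 and 2002 FPKM in Control against 2012 and 2022 with G-CSF.

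The machinery that builds ribosomes had a larger median fold change. Of 49 genes of RNA polymerase I and ribosome biogenesis, 36 rose and none fell, with a median log2 fold change of 0.31. Npm1, a nucleolar chaperone of ribosomal proteins, rose from 438 and 447 FPKM to 704 and 710 FPKM (log2 fold change 0.68, adjusted p = 0.00326). Ncl, which acts on ribosomal RNA precursors, rose by 0.63 (adjusted p = 0.00397), from 73.9 and 74.2 FPKM to 114 and 115 FPKM. The difference between the biogenesis list and the ribosomal proteins was not tested. Of 77 mitochondrial ribosomal protein genes, 20 rose and none fell, with a median of 0.19 and with both G-CSF values higher in 72.7%. Of all genes tested, 12.4% rose and 35.1% had both G-CSF values higher, with a median of 0.01. Other genes with a mean of at least 100 FPKM, 847 in all, had a median of 0.00, and 218 of them rose while 184 fell. That set is matched to the ribosomal proteins only loosely and not to the other lists. The median level was 28.8 FPKM in the biogenesis list and 34.6 FPKM in the mitochondrial list.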

How the data were processed

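Poly(A) RNA of 4 MDSC cultures (Control, n = 2, and G-CSF, n = 2) had been sequenced as single-end reads of 75 bases. The deposited FPKM values per gene were made by the authors, and the submitters' processing notes name TopHat2 2.0.13, Bowtie2 2.2.3, SAMtools 0.1.19, Cufflinks 2.2.1 and mm10. How reads that map to several genes were weighted is not given in the sources used here. Depth, read from the steps of low FPKM values, was about 12450000 to 15700000 reads a library, an estimate, since 66.0% to 70.9% of the values used were whole reads within 0.05 reads. The labels' extraction text names liver tissue, whereas the study's methods describe cultured cells.

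Genes with at least 1 FPKM in at least 2 libraries (11018) were tested on log2(FPKM + 0.1) with limma 3.58.1 (lmFit and eBayes with a trend, two-sided, R 4.3.3), with Benjamini-Hochberg adjustment over all of them and a call at an adjusted p under 0.05. A fold change on this scale understates the change of low genes. "Rose" and "fell" denote such a call. The procedure was tested on simulated data. The members and gene lists were chosen with earlier results of these data known, and the lists came from general knowledge. Named were the 20 called members with the lowest p, the 5 highest and 5 lowest in level, the paralogs, the 3 genes on either side of the level limit and up to 3 genes of each other list. Positions and transcripts were from GENCODE M21 on the same assembly as mm10 (Biopython 1.88), and promoters from RefSeq (GRCm38.p6). For each gene 1 transcript was used, the principal coding one where the gene is annotated as coding. Motifs were searched on the strand of the gene. Alternatives were another filter or none, other pseudocounts, 3 other scalings, no trend, a robust fit, a replicate block, each library left out, sums of genes with their copies and members with few shared windows. Some single genes are counted but not reported by name here.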

Additional observations from a re-analysis of the deposited data

How the results depend on the processing

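The sign of the family's median log2 fold change was the same under every alternative. Scaling to all genes that are not members raised the medians to 0.27 over members, 0.26 (40S), 0.29 (60S), 0.25 (P stalk), 0.31 (5S particle), 0.26 (exit tunnel), 0.27 (Diamond-Blackfan anaemia), 0.26 (ubiquitin fusions and Rack1), 0.32 (elongation), 0.27 (initiation), 0.28 (other TOP), 0.0688 (mTORC1), 0.22 (escorts), 0.27 (rescue), 0.37 (biogenesis) and 0.25 (mitochondrial), and the ratio of summed FPKM to 1.20. Median-ratio scaling gave 0.19 (40S) and 0.20 (Diamond-Blackfan anaemia).

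Without 1 library, which assumes that a lone library varies like the other group, the medians ran from 0.18 to 0.24 over members, 0.18 to 0.22 (40S), 0.19 to 0.26 (60S), 0.15 to 0.26 (exit tunnel), 0.15 to 0.24 (Diamond-Blackfan anaemia), 0.25 to 0.28 (elongation), 0.20 to 0.23 (initiation), -0.0339 to 0.0175 (mTORC1), 0.10 to 0.25 (escorts) and 0.32 to 0.36 (biogenesis). Rpl30 alone ran from -0.0211, without Control 2, to 1.04. The members that rose then numbered 0 to 7 and all genes called 629 to 1161, of 2528. Without a filter, 14 members and 1626 genes passed, and without a trend 0 and 1041. The 10 members called among those with at most 10% shared windows stand against a smaller list of 12, an alternative chosen after seeing the data, as were the sums with copies, where 53 passed.

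The replicate numbers pair the libraries in name only, since the sources used here do not say what a number stands for. Deviations of same-numbered libraries correlated at 0.279 over 11018 genes and at -0.642 over the 81 members. The value over members includes Rps27, which was far lower in Control 1 than in Control 2 but far higher in G-CSF 1 than in G-CSF 2. Rpl30 did the reverse, and the correlation without these genes was not tested. By count, 72 of the 81 members were higher in Control 1 and 55 in G-CSF 1, so most members did not run in opposite directions. With the replicate number as a block, 65 members rose, the 51 included, and 1 fell (Rps4l, adjusted p = 0.0281), with 3372 genes called in all. Over the 61 named genes, 712 values kept their direction and side of the threshold, 186 lost and 15 gained the call, and 1 reversed. With 2 libraries a group and about 12450000 to 15700000 reads each, the smallest log2 fold change of a member that passed the test as reported was 0.18, and smaller ones passed with the block.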

Other observations

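Genes around the ribosome that the text above does not cover gave a mixed picture. Of 8 RNAs that host small nucleolar RNAs in their introns, 7 rose, with a median log2 fold change of 0.47. Snhg5 went from 19.3 and 21.2 FPKM to 28.8 and 32.8 FPKM (log2 fold change 0.60, limma adjusted p = 0.0135), and Gas5 from 20.4 and 21.9 FPKM to 27.6 and 28.6 FPKM (0.41, adjusted p = 0.0144). Both are known to carry a TOP stretch without coding for a ribosomal protein. Of 17 genes of mTORC1 and of the control of TOP mRNAs, 2 rose (11.8%, where 12.4% of all genes tested rose) and none fell, with a median of 0.01. Larp1, which binds the TOP stretch, went from 44.6 and 44.8 FPKM to 54.9 and 55.4 FPKM (0.30, adjusted p = 0.0136), and Larp4 rose by 0.23 (adjusted p = 0.0373).

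Of 7 proteins that escort ribosomal proteins to the nucleus or into the ribosome, 2 rose (Ltv1 by 0.26 and Heatr3 by 0.27, adjusted p = 0.0232 and 0.0427), with a median of 0.16. Of 8 genes of translation termination, ribosome rescue and quality control, 3 rose. They were Gspt1, Abce1 and Hbs1l, at log2 fold changes of 0.24, 0.28 and 0.23, and all 8 had both G-CSF values above both Control values, with a list median of 0.21. The shares that rose were 28.6% of the escorts and 37.5% of these 8 genes, against 12.4% of all genes tested. Both G-CSF values were higher in 57.1% of the escorts and in 35.1% of all genes tested.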
